A study of Mus musculus with 2 samples.

Results

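Integrins, laminins and dystroglycan form the link between heart cells and the matrix around them. The genes were picked from the deposited expression table by name alone: symbols that start with Itga followed by a number or a single letter, symbols of Itgb or of Lama, Lamb or Lamc followed by 1 digit, and Dag1. This gave 37 of 29383 genes, namely 18 alpha integrins, 8 beta integrins, 10 laminin chains and the dystroglycan gene. The laminin beta 1 chain gene stands in the table as Lamb1-1, which the name rule does not match, so it is reported beside the laminins and not counted among them.

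RNA came from the ventricular end (apex) of mouse hearts at E12.5 (embryonic day of gestation), with 8 hearts per genotype pooled into 1 library. Both genotypes carry Nkx2-5cre, a Cre recombinase driven from the Nkx2-5 locus in the cardiac lineage. The heterozygote (Ezh2f/+) has 1 floxed copy of Ezh2 and the mutant (Ezh2f/f) has both. Ezh2 encodes the enzyme of Polycomb repressive complex 2, which places the repressive methyl mark on histone H3 lysine 27. Pooling leaves no replicate, so the spread between animals is unknown and no p-value was computed. Each interval below is a 95% interval of counting error alone. In pooled tissue, fewer cells of a type and less RNA per cell cannot be told apart.

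Integrins are surface receptors made of 1 alpha and 1 beta chain; the alpha chain largely sets which matrix protein is bound, and the beta chain couples to talin and the actin skeleton. Laminins are trimers of an alpha, a beta and a gamma chain that polymerise into the basement membrane around cardiomyocytes and under endothelium. Dystroglycan is a second laminin receptor that ties the basement membrane to dystrophin. In the embryonic heart, fibronectin, laminin and their receptors hold the muscle wall, the endocardium and the epicardium to their matrices.

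The libraries held 13944617 reads (heterozygote) and 14122579 reads (mutant). Ezh2 had 493 and 319 reads in these, a heterozygote-to-mutant ratio of 1.66 (1.44 to 1.92) that counts floxed and unfloxed exons alike. All 9 cardiomyocyte markers examined were detected, and they summed to 49783 CPM (heterozygote) against 50343 CPM (mutant). CPM are read counts over the library total, scaled here between the libraries by a trimmed mean of log ratios (TMM). The labels call the cells cardiomyocytes and name no sort; markers of endothelial cells (980.8 against 937.6 CPM summed, heterozygote first), epicardium (235 against 242 CPM), fibroblasts and cushion mesenchyme (1314 against 1291 CPM), and smooth muscle and pericytes (1623 against 1504 CPM) were present too. The log2 ratio of a gene followed the GC content of its transcript, with a Spearman rho of 0.44 over 10861 genes, which are not independent. Values with this trend removed are given beside the genes it moves. The fit that removed it used GC content and transcript length together. "GC trend" below means both, so a shift cannot be put down to GC content alone.

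For orientation, the table's genes can be matched to RefSeq promoters of build GRCm38.p6, which covered 23 of the 37 genes. Of the matched members with a mean of at least 40 CPM, 8 had no GENCODE M21 exon in the 250 bases before the annotated start. These bases are printed for 4 of the 8. They were chosen after their values were seen because each pair holds chains of 1 class on opposite sides of equality. Lama5 and Itgb5 were higher in the mutant, Lama2 and Itgb1 lower. The direction of Lama5 turned once the trend of GC content and length was removed (log2 ratio -0.05). Capitals mark each GC box, the letters GGGCGG or its reverse complement CCGCCC, searched on both strands with overlaps counted.
Lama5: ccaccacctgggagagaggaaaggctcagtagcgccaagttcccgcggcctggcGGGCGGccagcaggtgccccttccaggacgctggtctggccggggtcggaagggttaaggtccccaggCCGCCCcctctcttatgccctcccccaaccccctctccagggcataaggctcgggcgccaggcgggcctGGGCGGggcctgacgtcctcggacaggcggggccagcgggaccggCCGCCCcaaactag
Lama2: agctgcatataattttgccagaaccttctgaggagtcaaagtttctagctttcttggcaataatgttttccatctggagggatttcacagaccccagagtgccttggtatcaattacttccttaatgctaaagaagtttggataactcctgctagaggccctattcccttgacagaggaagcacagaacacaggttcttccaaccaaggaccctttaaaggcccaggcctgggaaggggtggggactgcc
Itgb5: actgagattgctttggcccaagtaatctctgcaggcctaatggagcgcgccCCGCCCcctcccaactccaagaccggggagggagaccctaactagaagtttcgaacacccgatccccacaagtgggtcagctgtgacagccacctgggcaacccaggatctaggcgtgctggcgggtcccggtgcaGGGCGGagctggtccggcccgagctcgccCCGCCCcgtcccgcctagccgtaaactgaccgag
Itgb1: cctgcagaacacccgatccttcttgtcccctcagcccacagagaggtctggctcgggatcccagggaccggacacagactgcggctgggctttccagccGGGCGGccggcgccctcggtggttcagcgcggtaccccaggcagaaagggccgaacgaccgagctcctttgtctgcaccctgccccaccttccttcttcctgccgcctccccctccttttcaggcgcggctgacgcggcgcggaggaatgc
These lie on the minus strand at chr2:180225860-180226109 (Lama5) and chr10:27616943-27617192 (Lama2), and on the plus strand at chr16:33829415-33829664 (Itgb5) and chr8:128685404-128685653 (Itgb1). Gene positions given below follow the deposited files, which use another build, so the distance between such a position and a window has no meaning. By the choice made above none of the 4 windows overlaps an exon of GENCODE M21. The Lama2 window lies inside a Lama2 intron of that annotation. Lama5 holds 4 GC boxes and 19 CpG dinucleotides, Itgb5 3 and 18, Itgb1 1 and 21, and Lama2 0 and 0. A GC box was present in 8 of the 23 member windows (34.8%) and in 33.0% of all 27025 gene windows of this length. These matches are descriptions of letters and not of bound sites.

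The differences between the libraries were small. Of the 37 genes, 34 reached 1 CPM in at least 1 library, and a gene can reach that floor through its higher library alone. On the scale log2((mutant CPM + 1)/(heterozygote CPM + 1)), which understates the difference of genes with few reads, 1 of the 34 was at least 1.5-fold higher in the mutant, where 3.45% of all 16185 genes at this floor were. None was at least 1.5-fold lower, against 1.88% of all genes, and none was 2-fold higher or lower, against 0.605% and 0.173%. With the trend of GC content and length removed, 1 of the 34 was at least 1.5-fold higher, against 2.61% of the 13239 genes with a known GC content. At least 1.5-fold lower were 3 (Itga2b, Itgam and Lama2), against 1.24%. Against the median of genes of like GC content alone, these 3 stood at -0.69, -0.54 and -0.49, and only Itga2b passed that size. A log2 ratio above 0 was found for 22 of 34 (64.7%), against 48.8% of all genes. The median log2 ratio was 0.13, beside -0.01 for all genes at the floor. With the GC trend removed, 19 of 34 were above 0 (all genes 47.7%) and the median was 0.02. By class, the medians were 0.10 for 17 alpha integrins, 0.13 for 6 beta integrins and 0.26 for 10 laminins, and with the GC trend removed 0.02, -0.05 and 0.03.

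**Figure D1:**
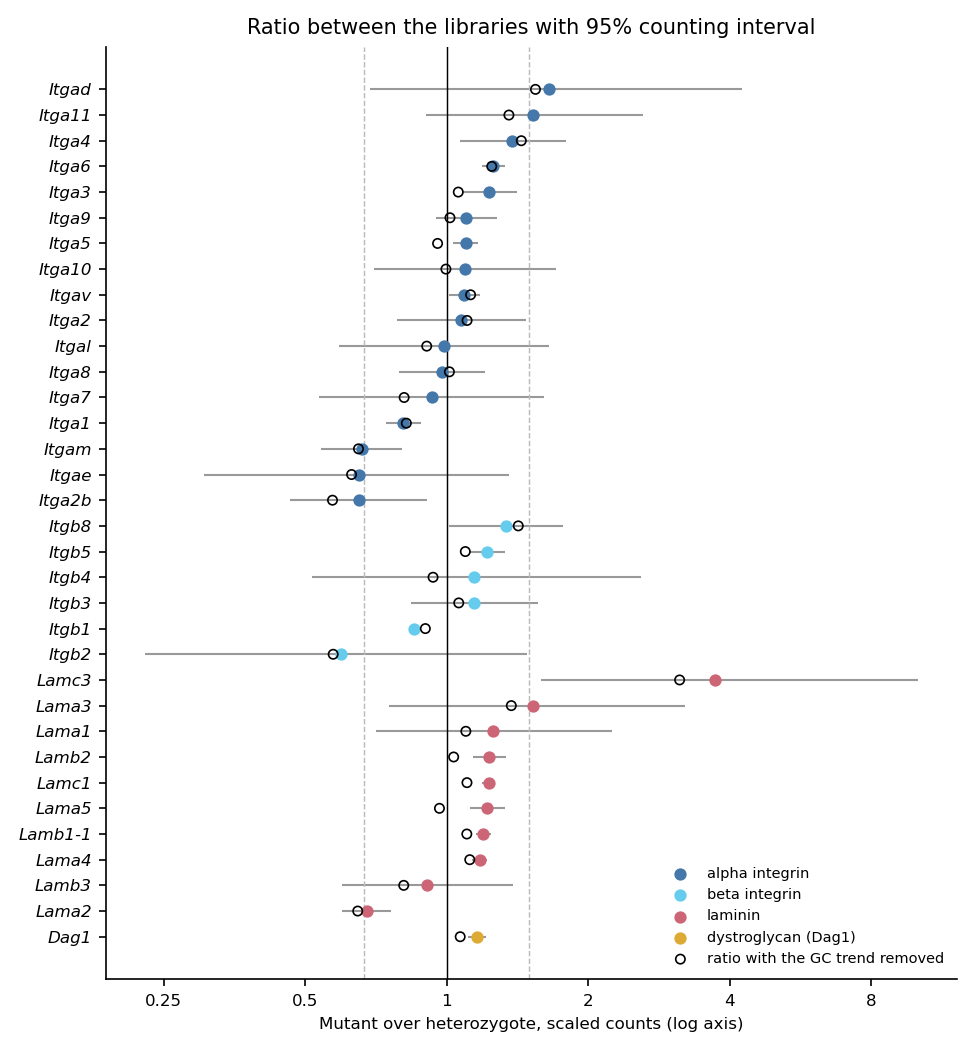
Ratio of scaled counts, mutant over heterozygote (log axis), for the genes with at least 1 CPM, other than 1 that is not shown, and for Lamb1-1. Filled points are the ratios with 95% counting intervals, open circles the ratios with the GC trend removed, and dashed lines mark a 1.5-fold difference. Lamc3 lies farthest out at 3.72, and Itgam (0.659) and Itga2b (0.650) lie just past the lower dashed line on this scale, which has no pseudocount; Itgad, Itga11, Itgae, Itgb2 and Lama3 also lie past a line, with intervals that include 1.

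Laminin chains that make up most of the laminin message were higher in the mutant. Lamc1 (chromosome 1, 155066052 to 155179916), the gamma chain shared by most laminin trimers, had 6617 heterozygote and 8752 mutant reads, that is 489 and 601 CPM. The mutant library was 1.23-fold higher (1.19 to 1.27). Lama4 (chromosome 10, 38685647 to 38829937), the alpha chain of laminins of endothelium and muscle, had 4988 and 6310 reads, or 369 and 433 CPM, and was 1.18-fold higher (1.13 to 1.22). Lamb1-1 (chromosome 12, 31950159 to 32014504), the beta chain that trimerises with both, was 1.20-fold higher (1.15 to 1.24), with 4649 and 5992 reads. All 3 were thus above equality by more than counting error, and by similar amounts. With the trend of GC content and length removed their log2 ratios went from 0.30 to 0.14 (Lamc1), 0.23 to 0.16 (Lama4) and 0.26 to 0.14 (Lamb1-1). They stayed above 0 with a smaller size. Against the median of genes of like GC content alone, they stood 0.25, 0.26 and 0.21 above it.

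The second tier of chains showed a similar ratio before, but not after, the trend of GC content and length was taken out. Lama5 (chromosome 2, 179911078 to 179960564), a broad basement membrane alpha chain, had 926 and 1216 reads, 1.22-fold higher in the mutant (1.12 to 1.33). Lamb2 (chromosome 9, 108382276 to 108392860), the beta chain of muscle and vessel laminins, had 1097 and 1456 reads and was 1.23-fold higher (1.14 to 1.34). Both transcripts fall in the top of 10 equal bins of genes by GC content, at 59.9% and 58.8%, and the median log2 ratio of all genes in that bin was 0.17. Once the fitted trend of GC content and length was removed, the log2 ratio of Lama5 was -0.05, which turns its direction, and that of Lamb2 0.05. Against the median of their GC bin alone, Lama5 and Lamb2 stood 0.12 and 0.13 above it.

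Lama2 was lower in the mutant and stood apart from the other well expressed laminins. Lama2 (chromosome 10, 26701092 to 27336748) encodes the alpha chain of merosin, the laminin of muscle basement membranes, whose loss causes a congenital muscular dystrophy. It had 660 heterozygote reads (48.8 CPM) and 480 mutant reads (33.0 CPM). This is 1.48 times as much in the heterozygote (1.31 to 1.67). Its log2 ratio was -0.55, just short of the 1.5-fold size, and -0.61 with the trend of GC content and length removed, which passes it. Against the median of its GC bin alone, Lama2 stood at -0.49, which does not. Fibroblast and mesenchymal markers summed to a mutant-to-heterozygote ratio of 0.983 (0.963 to 1.003) and smooth muscle and pericyte markers to 0.927 (0.910 to 0.945), with 3 of 8 at least 1.5-fold lower (1.88% of all genes were). Markers within each list lay on both sides. Of 9 fibroblast and cushion markers 2 were at least 1.5-fold higher and 1 lower, against 3.45% and 1.88% of all genes. The 2 higher were Sox9 at 1.58 (1.30 to 1.92) and Twist1 at 1.80 (1.27 to 2.59). The 1 lower was Dcn at 0.639 (0.575 to 0.711). Among smooth muscle and pericyte markers the 3 lower were Rgs5 at 0.136 (0.0517 to 0.301), Myh11 at 0.483 (0.227 to 0.981) and Kcnj8 at 0.527 (0.352 to 0.780). Only 2 of the 8 had a log2 ratio above 0 (48.8% of all genes had). These 2, picked here with their values known, were Tagln at 1.47 (1.37 to 1.58) and Cspg4 at 1.32 (1.21 to 1.43). The part of such cells in the Lama2 difference was not tested.

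Lamc3, a gamma chain of low level in most tissues, was the gene past the 1.5-fold size. It had 7 heterozygote and 28 mutant reads (0.517 and 1.92 CPM), which is 3.72-fold with a wide interval (1.59 to 10.1). Its log2 ratio was 0.95, and 0.70 with the GC trend removed. The remaining laminin genes had little signal. Lamb3, a beta chain of epithelial basement membranes, had 49 and 48 reads (ratio 0.910, 0.598 to 1.38). Lama1, the alpha chain of the early embryo, had 23 and 31 reads, and Lama3 14 and 23. The Lama3 locus carries 3 overlapping models in the table that can count the same reads: the 2 longer ones, Lama3B and lama3, had 35 and 66 reads (1.75-fold, 1.15 to 2.72) and 21 and 45 (1.99-fold, 1.16 to 3.52). Lama3 itself was at 1.03 and 1.58 CPM, a ratio of 1.53 with an interval that includes 1 (0.753 to 3.21). All 3 Lama3 models were higher in the mutant, at a level of a few CPM, but they can share reads and are not separate observations.

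Chain levels can be compared with each other per kilobase of transcript. Lama4 made up 84.3% of the summed alpha chain level in heterozygous and 86.6% in mutant hearts. Lama5 took 8.31% and 8.86%, and Lama2 7.01% and 4.14%. Counted in reads instead, the share of Lama2 among alpha chains was 9.98% (exact binomial interval 9.27 to 10.7) and 5.96% (5.45 to 6.49), so these intervals do not overlap. This share does not depend on how the libraries are scaled. Lamb1-1 held 79.7% and 79.4% of the beta chain level and Lamc1 96.2% and 96.6% of the gamma chain level. Summed over each class, alpha, beta and gamma chains stood at 72.4, 74.6 and 66.7 CPM per kb in heterozygous hearts and at 82.8, 89.6 and 81.6 CPM per kb in the mutant. The near equality of the 3 classes rests on the use of the longest coding transcript. With the mean transcript length the sums were 75.8, 137 and 111 CPM per kb in the heterozygote.

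**Figure D2:**
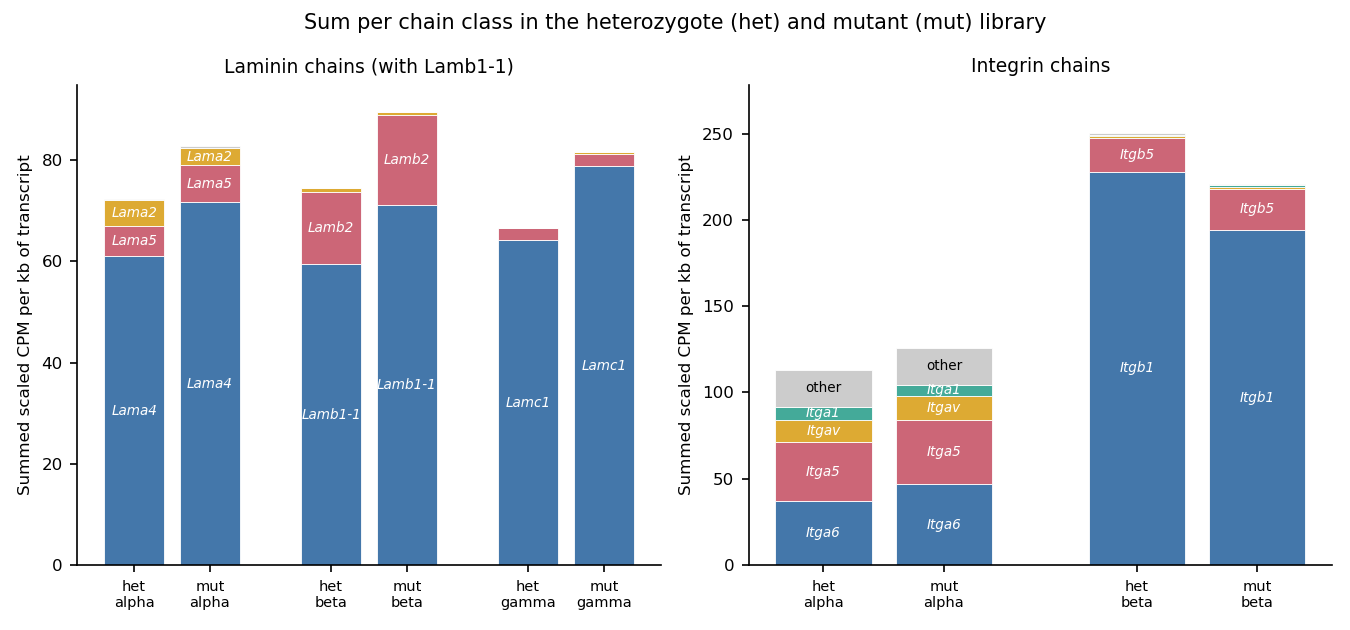
Summed scaled CPM per kb of transcript for laminin chains (left) and integrin chains (right) in each library, with the genes that contribute most as bar segments (other integrins in grey). Laminin sums are higher in the mutant for all 3 chain classes, while the beta integrin sum is lower (250 against 221 CPM per kb) and the alpha integrin sum higher (113 against 126 CPM per kb).

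Among beta integrins the dominant chain was lower in the mutant and the next one higher. Itgb1 (chromosome 8, 131209681 to 131257097), the beta 1 chain shared by receptors for laminin, collagen and fibronectin, had 11769 heterozygote and 10785 mutant reads, or 870.0 and 741 CPM. Its heterozygote-to-mutant ratio was 1.17 (1.14 to 1.21). Its log2 ratio was -0.23, and -0.15 with the GC trend removed or -0.14 with total-count scaling, below 0 in each case. Itgb5 (chromosome 16, 33829845 to 33949232), which pairs with the alpha v chain and binds vitronectin, had 871 and 1143 reads and was 1.22-fold higher in the mutant (1.12 to 1.33). Its log2 ratio of 0.28 became 0.13 without the GC trend. The share of Itgb5 in all beta integrin reads was 6.78% (6.35 to 7.23) for the heterozygote and 9.38% (8.87 to 9.91) for the mutant, and that of Itgb1 91.6% (91.1 to 92.1) and 88.5% (88.0 to 89.1). The balance of the 2 chains therefore differed between the libraries beyond counting error, whatever the scaling.

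Itgb8, the alpha v partner that activates latent TGF-beta, had 89 reads against 128 in the mutant (1.34-fold, 1.01 to 1.77), and with the GC trend removed its log2 ratio was 0.46 instead of 0.37. Itgb3, the chain of the platelet and vascular vitronectin receptors, had 78 and 96 reads (1.14-fold, 0.839 to 1.56). Itgb4, the hemidesmosome chain, had 13 and 16. The intervals of Itgb3 and Itgb4 include equality. The leukocyte chain Itgb2 had 14 reads and 9, the epithelial chain Itgb6 3 and 4, and Itgb7, a lymphocyte chain, 9 and 1. Itgb7 had a heterozygote-to-mutant ratio of 9.69 with an interval from 1.34 to 425, and like Itgb6 it was under 1 CPM in both libraries.

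Alpha integrins that bind laminin were higher in the mutant where they were well counted. Itga6 (chromosome 2, 71625140 to 71694815), a laminin receptor chain of endothelium and many epithelia, had 2172 heterozygote and 2940 mutant reads (161 and 202 CPM). The mutant was 1.26-fold higher (1.19 to 1.33), and its log2 ratio of 0.33 was 0.32 with the GC trend removed. Of 10 endothelial and endocardial markers, 2 had a log2 ratio above 0 (48.8% of all genes had). The sum of the 10 had a mutant-to-heterozygote ratio of 0.956 (0.933 to 0.979). The part of such cells in the Itga6 difference was not tested. Itga3 (chromosome 11, 94905796 to 94938115), another laminin receptor chain, had 388 and 514 reads and was 1.23-fold higher (1.08 to 1.41), with a log2 ratio of 0.29 that became 0.07 without the GC trend. Itga7, the laminin receptor chain of mature muscle, was barely detected, with 29 reads in each library. Summed over their reads, the 3 laminin-binding chains were 1.25-fold higher (1.19 to 1.32), with 2589 and 3483 reads.

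Chains that bind collagen were lower in the mutant as a sum, which consists mostly of Itga1 reads. Itga1 (chromosome 13, 115748289 to 115892172), the chain of the collagen IV receptor on smooth muscle, mesenchyme and endothelium, had 1153 heterozygote reads (85.2 CPM) and 1003 mutant reads (68.9 CPM). The heterozygote-to-mutant ratio was 1.24 (1.14 to 1.35), and the log2 ratio was -0.30, or -0.28 without the GC trend. The models Pelo and Pelota overlap the Itga1 span and can share its reads. Itga2 had 77 and 89 reads, Itga10 40 and 47, and Itga11, a chain of mesenchymal cells, 25 and 41 (1.52-fold higher in the mutant, 0.905 to 2.61). Of these 4, Itga1 alone was lower, and the intervals of the other 3 include equality.

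Of the chains that bind fibronectin and other RGD ligands, Itga5, Itgav and Itga8 had ratios near 1, while Itga2b, given with the blood cell genes, did not. Itga5 (chromosome 15, 103174718 to 103197194), the alpha chain of the main fibronectin receptor, had 2005 and 2368 reads and was 1.10-fold higher in the mutant (1.03 to 1.17). This direction turned without the trend of GC content and length, from a log2 ratio of 0.13 to -0.07. Against the median of its GC bin alone, Itga5 stood 0.03 above it. Itgav (chromosome 2, 83564554 to 83647073), the alpha v chain, had 1229 and 1442 reads, 1.09-fold higher (1.01 to 1.18), with a log2 ratio of 0.12 that was 0.17 without the trend. Itga8, the nephronectin receptor chain, had 176 and 185 (ratio 0.977, 0.790 to 1.21). In the alpha 4 group, whose chains bind VCAM1, fibronectin and tenascin, Itga4 was 1.38-fold higher (1.07 to 1.79) with 101 and 150 reads, and its log2 ratio of 0.42 was 0.48 without the GC trend. The models AK041096 and Cerkl overlap the Itga4 span and can share its reads. Itga9 had 329 and 390 reads (1.10-fold, 0.949 to 1.28). Itga4 is a receptor chain of the epicardium, whose 9 markers summed to a mutant-to-heterozygote ratio of 1.03 (0.981 to 1.08). The part of epicardial cells in the Itga4 difference was not tested.

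Among the alpha chains given here with blood cells, Itgam and Itga2b were lower in the mutant and the others had few reads. Itgb3, the platelet and vascular chain given above, had a ratio of 1.14 (0.839 to 1.56). Itgam (chromosome 7, 135206154 to 135271674), the CD11b chain of macrophages and neutrophils, had 251 heterozygote reads (18.6 CPM) and 178 mutant reads (12.2 CPM). The heterozygote was 1.52-fold higher (1.25 to 1.85). Its log2 ratio was -0.56, just short of the 1.5-fold size because of the pseudocount. With the trend of GC content and length removed it was -0.59, just past that size, and against the median of its GC bin alone -0.54. Of 14 leukocyte markers, 13 reached 1 CPM and 9 of them had a log2 ratio below 0 (30.8% were above 0, against 48.8% of all genes). The list summed to 100.2 CPM (heterozygote) and 85.2 CPM (mutant). Itga2b (chromosome 11, 102314611 to 102331058), the platelet and megakaryocyte chain, had 90 and 63 reads, a heterozygote-to-mutant ratio of 1.54 (1.10 to 2.16). A second model of the same span, GPalpha IIb, had 93 and 62. Of the 8 megakaryocyte and platelet markers that reached 1 CPM, 7 were lower and 1 had a log2 ratio above 0 (48.8% of all genes had). Their median log2 ratio was -0.58, or -0.37 with the trend of GC content and length removed. The full list summed to 26.7 CPM (heterozygote) against 19.5 CPM (mutant). The mutant-to-heterozygote ratio of the sum was 0.850 (0.786 to 0.918) for leukocyte markers. For megakaryocyte and platelet markers it was 0.731 (0.624 to 0.856). Markers within each list lay on both sides. The part of such cells in the Itgam and Itga2b differences was not tested. The other leukocyte chains had few reads: Itgal 32 and 34, Itgae 20 and 14, Itgad 9 and 16, and Itgax 2 and 0, and at this depth no difference was detectable.

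**Figure D3:**
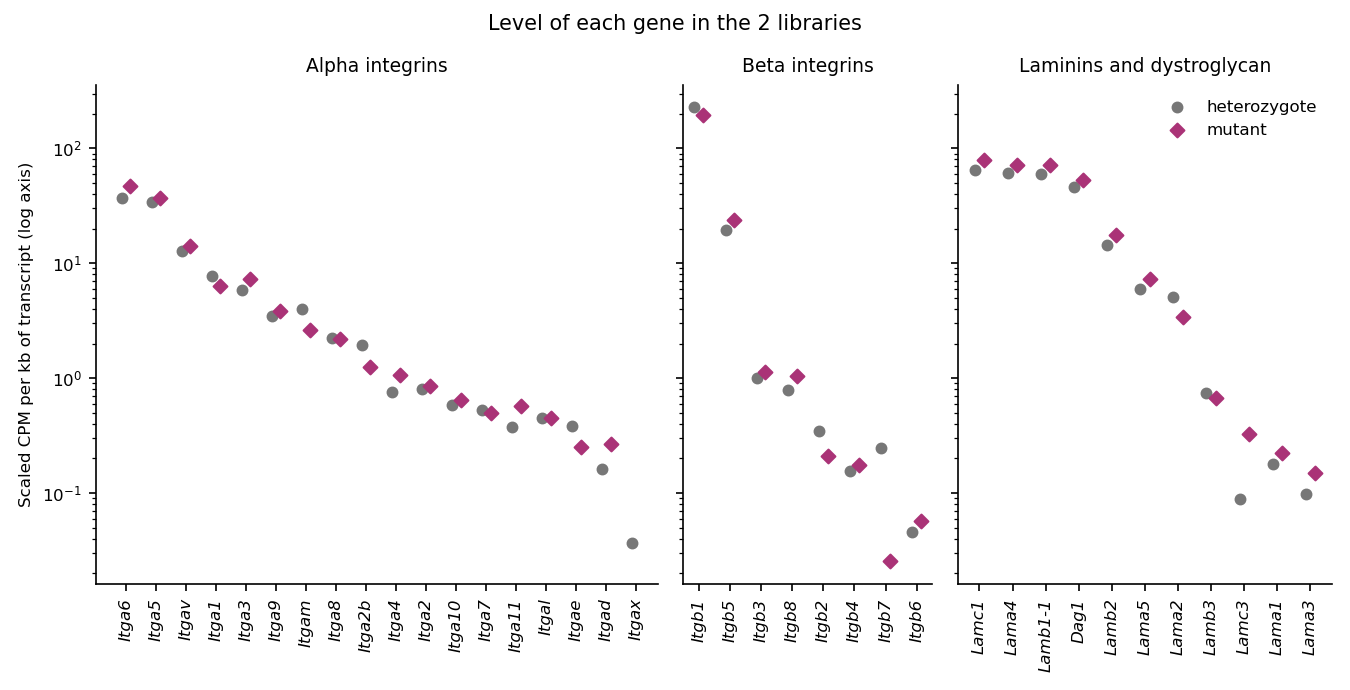
Scaled CPM per kb of transcript (log axis) for each gene shown, in order of its mean, with circles for the heterozygote and diamonds for the mutant library; Itgax had no read in the mutant and has no diamond there. Itgb1 is highest in both libraries at 228 and 194 CPM per kb, and among the 5 leading alpha chains only Itga1 and Itga3 change places between libraries.

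Across the receptors, Itgb1 exceeded the summed level of the 12 alpha chains known to pair with it in both libraries. Per kilobase of transcript the ratio was 2.14 for heterozygous and 1.60 for mutant hearts, and 2.84 and 2.13 with mean transcript lengths. The alpha chains that lead the order were Itga6 (37.3 and 46.9 CPM per kb), Itga5 (33.8 and 37.1) and Itgav (12.9 and 14.04). Itga1 had rank 4 in the heterozygote (7.77 CPM per kb) and rank 5 in the mutant (6.28), where Itga3 had rank 4 (7.26). Among alpha integrin reads, Itga6 took 26.7% (25.8 to 27.7) and 30.9% (30.0 to 31.9), and Itga1 14.2% (13.4 to 15.0) and 10.6% (9.94 to 11.2). Both shares differed by more than counting error.

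Dag1 (chromosome 9, 108108289 to 108166255), which encodes both subunits of dystroglycan, had 3516 heterozygote and 4397 mutant reads, or 259.9 and 302 CPM. It was 1.16-fold higher in the mutant (1.11 to 1.22), with a log2 ratio of 0.22 that became 0.09 once the GC trend was removed. The genes that act with it did not share its size. Of 20 genes of the dystrophin complex and of dystroglycan glycosylation, 9 had a log2 ratio above 0 (45.0%, against 48.8% of all genes), with a median of -0.02. None was at least 1.5-fold higher and 1 was at least 1.5-fold lower, against 3.45% and 1.88% of all genes.

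Genes downstream of integrins and the ligands of these receptors were compared in the same way. Of 27 genes of the integrin adhesion complex at the floor, 18 had a log2 ratio above 0 (66.7%, against 48.8% of all genes) with a median of 0.08. None was at least 1.5-fold higher or lower, against 3.45% and 1.88% of all genes. The 2 with the highest mean level were Csrp1, an actin-associated LIM protein, at a ratio of 0.981 (0.940 to 1.02), and Tln1, the talin that binds beta chain tails, at 1.13 (1.08 to 1.18). With the GC trend removed, 11 of these 27 were above 0 (all genes 47.7%) and the log2 ratio of Tln1 went from 0.18 to -0.07. Of 24 basement membrane partners and integrin ligands, 17 were above 0 (70.8%, against 48.8% of all genes) with a median of 0.15. Once the trend was removed, 10 were above 0 (all genes 47.7%) with a median of -0.01. With the trend kept, none of the 24 was at least 1.5-fold higher and 1 was at least 1.5-fold lower, against 3.45% and 1.88% of all genes. This was Spp1, osteopontin, a ligand of alpha v integrins, with 78 reads against 16 in the mutant. Spp1 was also at least 2-fold lower, as were 0.173% of all genes. Its heterozygote-to-mutant ratio was 5.25 (3.04 to 9.63). Nid2 (nidogen 2) and Hspg2 (perlecan), basement membrane proteins picked here with their values known, were 1.40-fold and 1.37-fold higher. Their log2 ratios of 0.49 and 0.45 became 0.34 and 0.07 without the trend. A model named Hspg2 lies on chromosome 13 (76050195 to 76081272), where the Rhobtb3 model overlaps it and can share its reads. For scale, 35 collagen chain genes at the floor had a median log2 ratio of 0.05, which turned to -0.16 with the GC trend removed, and 5 were at least 1.5-fold higher (3.45% of all genes were). The 49 cadherins and protocadherins at the floor had a median of 0.11, or 0.01 with the trend removed. At least 1.5-fold higher was 1 and lower were 2, against 3.45% and 1.88% of all genes.

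**Figure D4:**
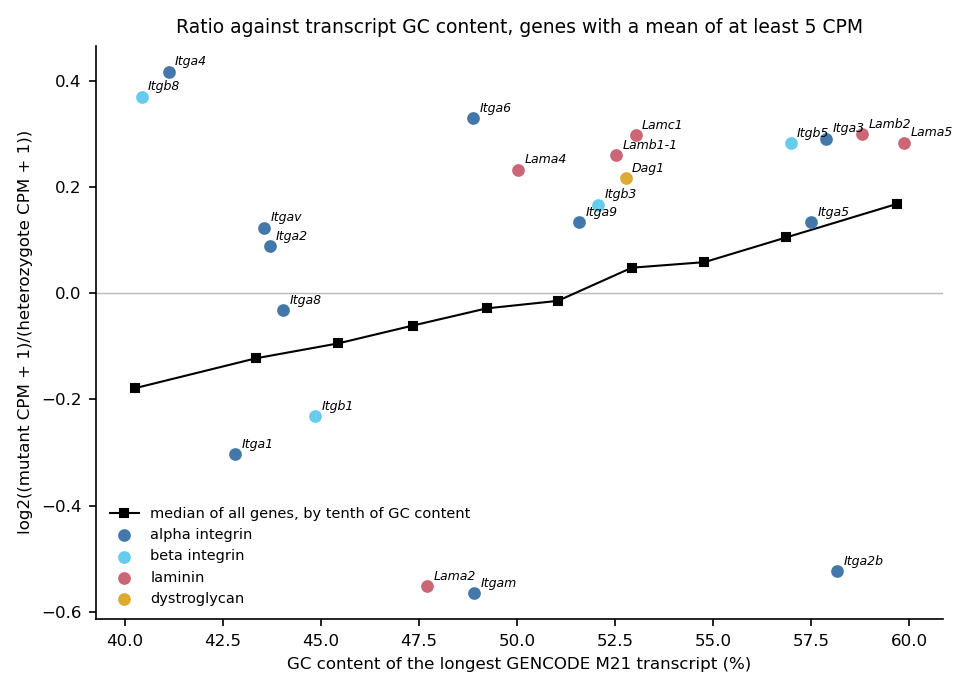
Log2 ratio (CPM + 1 scale) against the GC content of the transcript for members with a mean of at least 5 CPM (1 is not shown) and Lamb1-1, with the median of all genes in each of 10 GC bins as black squares. The line of medians runs from -0.18 to 0.17; Itga6, Lama4, Itga4 and Itgb8 lie well above it, Lama2, Itgam and Itga2b well below, and Itga5 and Lama5 near it.

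Set against the genes of like GC content, members with at least 5 CPM on average lay on either side. Itga4, Itgb8 and Itga6 stood 0.60, 0.55 and 0.36 above the median log2 ratio of their GC bin, and Lama4 and Lamc1 0.26 and 0.25 above theirs. Itga2b, Itgam and Lama2 stood -0.69, -0.54 and -0.49 from theirs. Itgb1, at a GC content of 44.8%, was -0.14 from the median of its bin, and Itga5, at 57.5%, 0.03. Over the 22 members with a mean of at least 5 CPM the Spearman rho of log2 ratio and GC content was 0.13, given as a description since all points come from the same pair of libraries.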

How the data were processed

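RNA sequencing of 2 pooled libraries was analysed, 1 per genotype. Per the file headers, the authors deposited whole-number read counts per gene model, CPM, a ratio of heterozygote over mutant CPM and a p-value with no named test. The deposited ratio and p-value were not used. The aligner, counter, strand setting and genome build were each not given in the sources used here. Genomic positions follow the files, with 1 added to each start; the last model on chromosome 1 ends at 197002909, beyond the end of that chromosome in GRCm38, so the files use another build. The counts in the single-sample tables and the series table differed in 0 rows, and recomputed CPM matched to within 4.91e-11.

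Rows of 1 symbol were summed (29595 rows, 29383 genes). TMM factors (0.970 heterozygote, 1.03 mutant) came from edgeR 4.0.16 in R 4.3.3. Ratios carry a 95% exact conditional Poisson interval (scipy 1.17.1), which covers counting error only since no molecular identifiers are recorded that would tell PCR copies apart; this step was tested on simulated data. With 1 library per genotype no count model was fitted. A size rule of 1.5-fold and 2-fold with a pseudocount of 1 CPM and a floor of 1 CPM replaces a test. GENCODE M21 gave GC content and length, from each symbol's longest coding transcript (81.8% of genes at the floor, all 37 members), and the GC trend is a quadratic fit on GC content and log length to the 10861 genes averaging 5 CPM or more. Of the listed pathway and marker genes, Fermt3, Hbb-b2 and Hba-a1 were not matched. Erythroid markers summed to 13602 CPM (heterozygote) and 9200.2 CPM (mutant), and neural crest and glial markers to 4.36 and 5.15 CPM. The values of 1 laminin chain gene and of 1 gene of the dystroglycan list are not reported here, though both count in sums and medians. The other members are named; from other lists, up to 4 genes past 1.5-fold or else the 2 highest could be named, besides those said to be picked later. Members and lists were chosen with earlier results of these data known.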

Additional observations from a re-analysis of the deposited data

How the results depend on the processing

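With 1 library per genotype no replicate could be left out. No paired analysis was possible because each genotype has a single library. The main count of members at least 1.5-fold higher was 1 (Lamc3); it was 2 with a pseudocount of 0.1 CPM, 0 with a pseudocount of 5 CPM and 0 with a floor of 5 CPM. Members at least 1.5-fold lower numbered 0, but 3 with a pseudocount of 0.1 CPM, 3 with the GC trend removed and 1 with no filter on low values. Members at least 2-fold higher numbered 1 instead of 0 with a pseudocount of 0.1 CPM. Over all genes, 559 were at least 1.5-fold higher and 305 lower. With a pseudocount of 0.1 CPM these were 993 and 573, with 5 CPM 121 and 50, with the GC trend removed 346 and 164 (among the 13239 genes with a GC value, where 446 and 199 were counted with the trend kept, a count added after seeing the data), with a floor of 5 CPM 279 and 159, and 190 were lower with total-count scaling. That scaling gave 788 higher, so the higher share of these calls went up, and it shifts log2 ratios by 0.09. At 2-fold, 98 genes were higher and 28 lower in the main setting. A pseudocount of 0.1 CPM gave 312 and 143, one of 5 CPM 14 and 6, a floor of 5 CPM 50 and 14, and removal of the GC trend 64 higher (82 among the same genes with the trend kept). Class medians kept their sign in all settings except that of beta integrins with the GC trend removed (-0.05). The laminin median ran from 0.03 with that trend removed to 0.34 with total-count scaling. Removal of the trend of GC content and length turned the sign for 5 of 34 members (Itga5, Lama5, Itga10, Itga8, Itgb4). Total-count scaling did so for 3 (Itga8 and Itgal among them), and median-of-ratios or upper-quartile scaling for 1. Adding Lamb1-1 or using the Lama3B model, both chosen after seeing the data, gave laminin medians of 0.26. The share of a leading chain per length depends on the transcript length used: with mean lengths, also chosen after seeing the data, Lama4 made up 80.5% and 84.2% of alpha chains in the heterozygote and mutant, and Lamb1-1 64.3% and 63.7% of beta chains. The cause of these shifts was not tested. Depth limits genes under about 50 reads, whose intervals span more than a 2-fold range.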
